A study of Mus musculus with 6 samples.

Results

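Splicing removes introns from RNA in the spliceosome, an assembly of small nuclear ribonucleoproteins (snRNPs) and loosely bound proteins. The 78 genes described here encode many of its building blocks, and some Lsm genes among them act in other RNA processes. Their symbols begin Srsf and a digit, Hnrnp, Sf3a, Sf3b, Snrp, Lsm and a digit, or Prpf. They were taken as every such row of the deposited expression table, with pseudogene symbols left out. They are 78 of the 24421 genes in the table and fall into 6 families: 11 Srsf, 20 Hnrnp, 12 Snrp, 9 Sf3, 13 Prpf and 13 Lsm genes. All 78 symbols matched genes of the GENCODE M21 annotation of the mouse GRCm38 assembly that are not annotated as pseudogenes.

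Messenger RNA was sequenced by SMART-seq from regulatory T cells (Treg, the Foxp3-dependent lymphocytes that restrain immune responses), labelled as wild-type (WT) and from mouse spleen and lymph nodes. The groups were Treg stimulated in vitro with iBP, which the study describes as an inhibitor of the histone mark H2AK119ub1, Treg stimulated without it, and unstimulated Treg, with 2 libraries each. The sources used here give no strain, age or sex of the mice, no stimulus or time, and no iBP dose, and no group received iBP without stimulation. Treg from Kdm2b conditional knockout mice, which the design text also names, were not analysed here.

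SR proteins, encoded by the Srsf genes, bind exons and help to recruit the splicing machinery, whereas many hnRNP proteins bind the same transcripts and favour skipping of exons. The Snrp genes encode the Sm ring at the core of the snRNPs together with proteins particular to U1 and U2, SF3A and SF3B hold the U2 snRNP at the branch point, and most PRPF proteins act in or around the U4/U6.U5 tri-snRNP. The Lsm genes encode Sm-like proteins that bind U6 RNA, act in mRNA decay or take part in histone pre-mRNA processing. In T cells, activation is known to change splicing of many transcripts, among them that of the CD45 gene Ptprc, which Hnrnpl and Hnrnpll regulate.

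The 6 libraries had 12596 to 13592 genes above 0 FPKM and sums of 366044 to 381302 FPKM. FPKM scales the fragments of a gene to transcript length and to the mapped fragments of the library, so levels of different genes are compared per length below. Read depth is unknown. Unstimulated replicate 1 stood apart, with a score of -37.9 on the first principal component of all tested genes, whereas unstimulated replicate 2 scored -9.32 and the stimulated and iBP libraries scored 10.5 to 13.3. Foxp3 read 122 and 124 FPKM in stimulated Treg with iBP, 121 and 101 FPKM in stimulated Treg, and 35.5 and 47.1 FPKM in unstimulated Treg. Il2ra (106 and 92.9 FPKM unstimulated, 164 to 204 FPKM in the others) and Ctla4 (196 and 209, against 257 to 291 FPKM) were likewise lower in unstimulated Treg. The Treg marker Ikzf2 overlapped, at 46.4 and 46.8 FPKM with iBP, 39.7 and 44.3 FPKM in stimulated and 42.5 and 54.2 FPKM in unstimulated Treg. Cd3e read 57.6 to 83.3 FPKM over the 6 libraries. Markers of other cells were also present: the B-cell gene Cd79a read 234 to 291 FPKM, and all 5 B-cell markers summed to 659 and 690 FPKM with iBP, 800 and 752 FPKM in stimulated and 754 and 763 FPKM in unstimulated libraries. The 3 plasma cell markers summed to 97.8 to 130 FPKM. The 5 pancreatic acinar markers summed to 26.3 to 126 FPKM, highest in stimulated replicate 2. The 4 erythroid markers summed to 40.2 to 214 FPKM, with Hba-a1 at 179 FPKM in unstimulated replicate 1 and 123 FPKM in iBP replicate 2. The 4 dendritic cell and monocyte markers summed to 65.9 to 100.1 FPKM, nearly all of it Lyz2 (65.5 to 99.5 FPKM), while Itgax, Csf1r and Cd14 were each under 1 FPKM. The 3 stromal and endothelial markers summed to 14.4 to 26.8 FPKM, nearly all of it Pecam1, while Col1a1 and Cdh5 were at or near 0. The 3 NK cell markers summed to 0.124 to 1.69 FPKM and the 2 CD8 T-cell markers to 8.48 to 14.03 FPKM. Splicing genes are used by every nucleated cell type, and the part of these other cells in the values below was not tested; in bulk RNA, fewer cells of a type and less RNA per cell cannot be told apart.

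The members ranged from some of the most abundant genes in the table to some near 0. Together the 78 genes took 1.91% and 1.79% of summed FPKM in stimulated Treg with iBP, 1.83% and 1.98% in stimulated Treg, and 1.78% and 1.86% in unstimulated Treg, ranges that overlap. By mean over the 6 libraries, 17 genes were at 100 FPKM or more, 40 at 10 to 100, 17 at 1 to 10 and 4 under 1. The Hnrnp family gave the largest share, 0.886% and 0.844% of summed FPKM with iBP, 0.832% and 0.945% in stimulated and 0.781% and 0.839% in unstimulated Treg. The Srsf family followed at 0.374% to 0.445% over the 6 libraries and the Lsm family was lowest, at 0.0568% to 0.0747%. The 2 unstimulated libraries had the highest Lsm shares, 0.0747% and 0.0690%, against 0.0568% and 0.0588% with iBP and 0.0630% and 0.0569% in stimulated Treg. Without Lsm4, described below, the shares were 0.0516% and 0.0544% with iBP, 0.0527% and 0.0519% in stimulated and 0.0596% and 0.0526% in unstimulated Treg, and the groups overlapped.

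**Figure D1:**
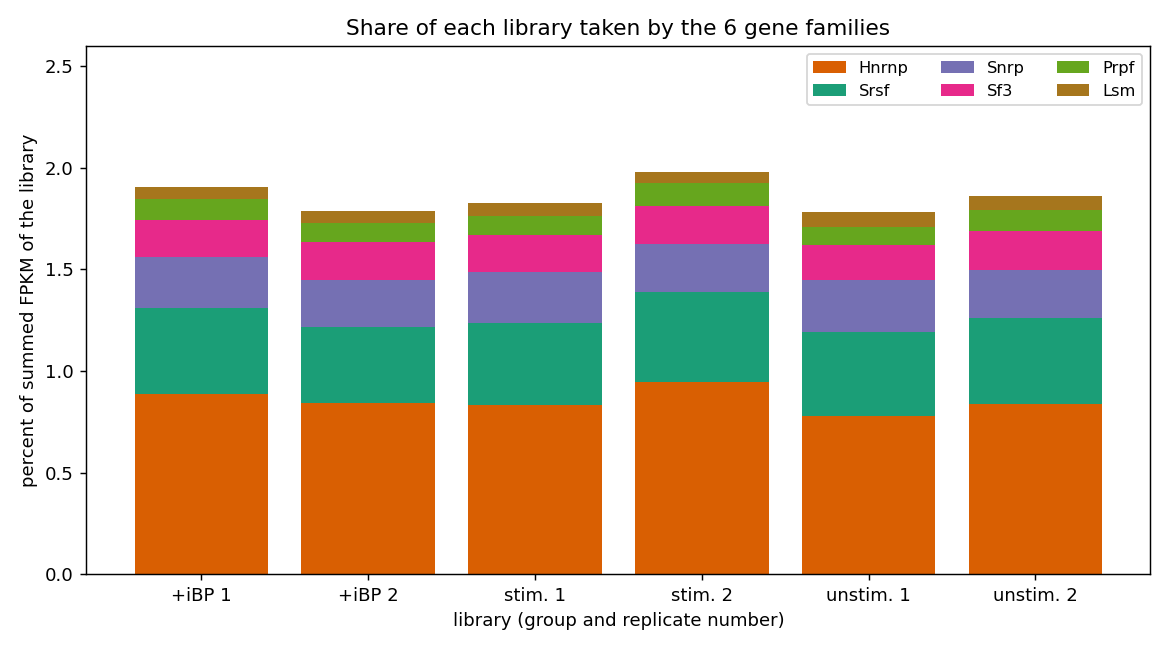
Percent of the summed FPKM of each of the 6 libraries that came from each of the 6 gene families, stacked, with stimulated + iBP libraries at the left, then stimulated and unstimulated libraries. The total lies between 1.78% and 1.98% in all 6 libraries, and Hnrnp genes make up the largest part of each bar.

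A single gene, Hnrnpk, supplied 17.9% to 18.9% of the FPKM of all 78 genes. Hnrnpk encodes a poly(C)-binding hnRNP protein with roles in transcription, splicing and translation. It read 1267 and 1224 FPKM in stimulated Treg with iBP, 1283 and 1418 FPKM in stimulated Treg and 1221 and 1279 FPKM in unstimulated Treg, and by mean it ranked 31 among all 24421 genes. The highest and lowest of its 6 libraries differed by 1.16-fold. The next by mean level were Hnrnpa2b1, Srsf5 and Srsf7, and each family spanned a wide range. Means ran from 420 FPKM (Srsf5) to 1.5 FPKM (Srsf12) in the Srsf family and from 1282 FPKM (Hnrnpk) to 2.28 FPKM (Hnrnpul2) in the Hnrnp family. They ran from 348 FPKM (Snrpb) to 0.214 FPKM (Snrpn) in the Snrp family, and from 264 FPKM (Sf3b1) to 1.11 FPKM (Sf3a2) in the Sf3 family. In the Prpf family the range was 81.3 FPKM (Prpf38b) to 0.736 FPKM (Prpf19), and in the Lsm family 54.9 FPKM (Lsm5) to 0.742 FPKM (Lsm14b).

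**Figure D2:**
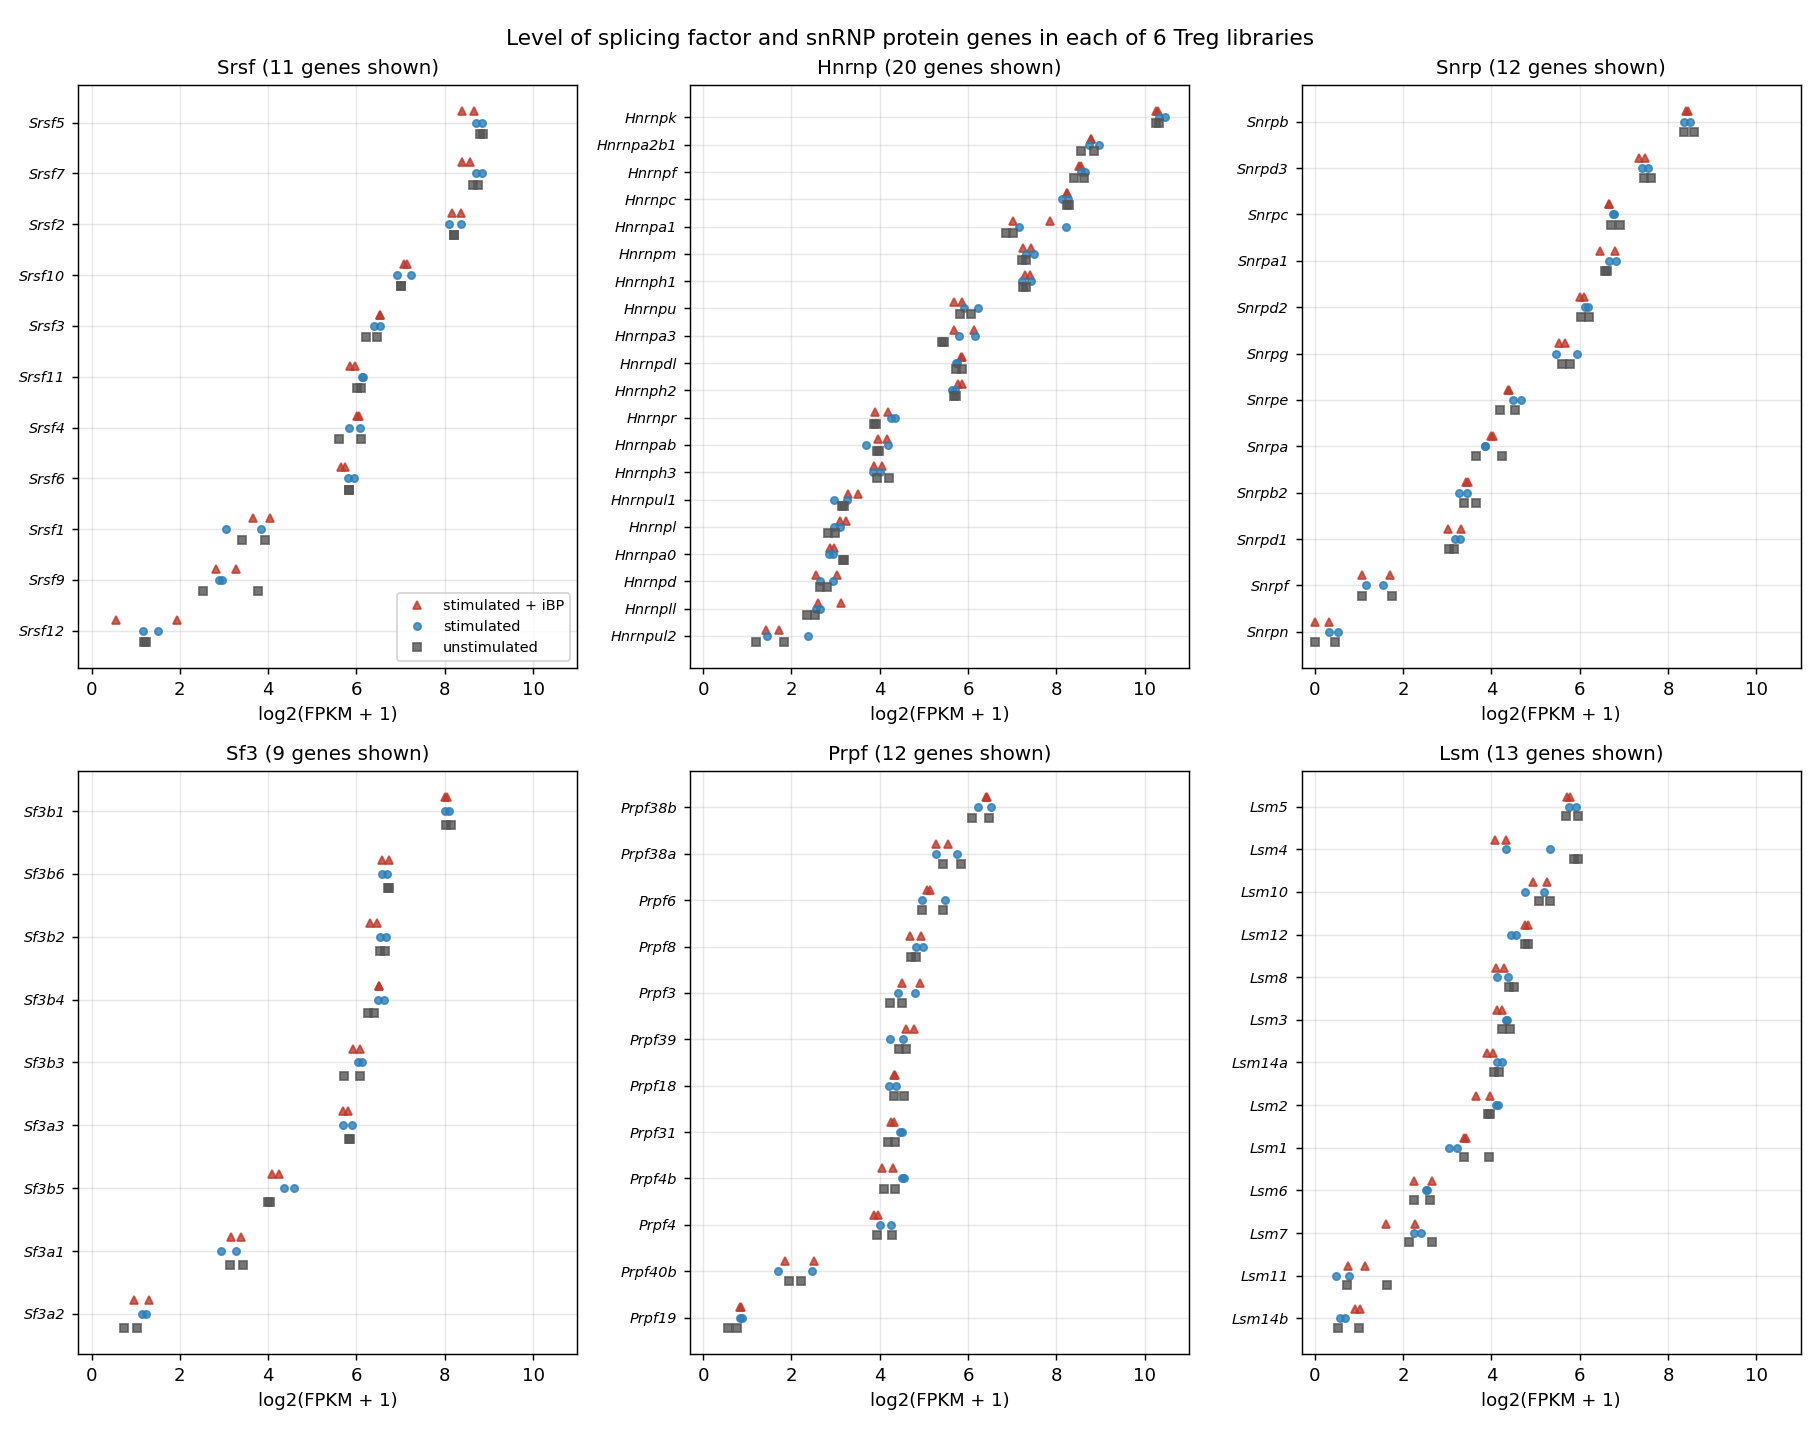
Level, as log2(FPKM + 1), of 77 of the 78 genes in each library, by family and ordered by mean level, with symbols for stimulated + iBP, stimulated and unstimulated Treg. Most genes have 6 points that lie close together, and levels within a family span from under 3 to over 50 FPKM.

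Stretches upstream of the start of transcription are shown for 3 members that differ in level, Hnrnpk as the highest, Hnrnpa1 as the one with the highest fitted difference between stimulated and unstimulated Treg, and Snrpn as the lowest. They are the 200 bases before the start, 5′ to 3′ in the direction of transcription, from RefSeq on GRCm38.p6, with CG pairs in capitals. Hnrnpk is at chr13:58402118-58402317 on the minus strand (23 CG), Hnrnpa1 at chr15:103240197-103240396 on the plus strand (10 CG), and Snrpn at chr7:60140226-60140425 on the minus strand (3 CG). Snrpn has 4 starts in the RefSeq table, with 2 to 4 CG, of which the one nearest to the start of the GENCODE gene is shown. The start of Hnrnpk lies 1226 bases inside its GENCODE gene, and the other 2 lie within 35 bases of theirs.
Hnrnpk: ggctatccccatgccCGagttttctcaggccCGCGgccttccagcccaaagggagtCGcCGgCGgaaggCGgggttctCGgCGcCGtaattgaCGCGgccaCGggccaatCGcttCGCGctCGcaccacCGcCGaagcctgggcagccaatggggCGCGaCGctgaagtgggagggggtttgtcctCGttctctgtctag
Hnrnpa1: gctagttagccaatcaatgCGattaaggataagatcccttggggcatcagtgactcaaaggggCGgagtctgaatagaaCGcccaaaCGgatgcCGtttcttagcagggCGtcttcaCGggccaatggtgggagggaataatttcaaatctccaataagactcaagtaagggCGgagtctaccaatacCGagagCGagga
Snrpn: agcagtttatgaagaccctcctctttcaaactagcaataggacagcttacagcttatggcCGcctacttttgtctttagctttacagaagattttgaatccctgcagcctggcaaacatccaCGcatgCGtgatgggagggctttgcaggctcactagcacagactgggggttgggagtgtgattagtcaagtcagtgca

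CG pairs were frequent upstream of most members. The 67 of the 78 genes with an entry in the RefSeq table had a median of 18 CG pairs in these 200 bases, against 14 for the 7886 tested genes with an entry and 5 for all 27025 entries. At least 10 CG pairs were present in 59 of the 67 (88.1%), against 70.4% of tested genes and 34.7% of all entries. The letters CCGGAA, the core bound by ETS-family factors, were found on either strand in 35.8% of the members, 22.7% of tested genes and 10.9% of all entries. CCAAT, on either strand, was found in 44.8%, 33.8% and 30.0% of these sets, and TATAAA in 5.97%, 4.46% and 10.6%. Where a gene has several starts the first one listed was used. A gene counted once per motif, whether or not motifs overlapped. These are counts of letters in a window, and the members are also expressed at a higher level than most genes (median 33.3 FPKM for tested members against 8.42 FPKM for all tested genes). Lsm4, Hnrnpll and Snrpb were among the members with no entry.

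Genes whose proteins belong to one particle were listed at very different FPKM. In the 7-membered Sm ring, which encircles U1, U2, U4 and U5 RNA, means ran over 210-fold, from 348 FPKM for Snrpb to 1.66 FPKM for Snrpf. Snrpb read 350 and 336 FPKM with iBP, 359 and 330 FPKM in stimulated and 384 and 330 FPKM in unstimulated Treg. Snrpf read 1.09 and 2.27 FPKM with iBP, 1.93 and 1.24 FPKM in stimulated and 2.33 and 1.09 FPKM in unstimulated Treg. Snrpb was above Snrpf in every library, and the groups overlapped for both. The spread was 49.2-fold in SF3A (Sf3a3 over Sf3a2), 14.9-fold in SF3B (Sf3b1 over Sf3b5), 14.6-fold in the ring of Lsm2 to Lsm8 (Lsm5 over Lsm7), 10.1-fold between a pair of U2 proteins (Snrpa1 over Snrpb2) and 7.37-fold between a pair of U1 proteins (Snrpc over Snrpa). It was smallest, 2.25-fold, among 5 PRPF proteins of the tri-snRNP (Prpf6 over Prpf4). Sequence copies could bear on such levels, because no source used here says how reads that match several places were handled. Of the 78 genes, 57 had no near-copy among annotated transcripts (at least 95% identity over at least 80% of the coding sequence), 19 had 1 to 4 and 2 had 5 or more. Median mean levels in these classes were 19.5, 54.9 and 114 FPKM, and exons of 28 members overlap another annotated gene. Of the lowest genes named here, Snrpf has 1 near-copy and exons that overlap Ccdc38 and 4933408J17Rik. Exons of Sf3a2 overlap Plekhj1, Snrpa has 2 near-copies and exons that overlap BC024978, and Lsm7 has 2 near-copies. For Sf3b5, Snrpb2 and Prpf4 neither was found. The part of copies and overlaps in the levels was not tested.

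**Figure D3:**
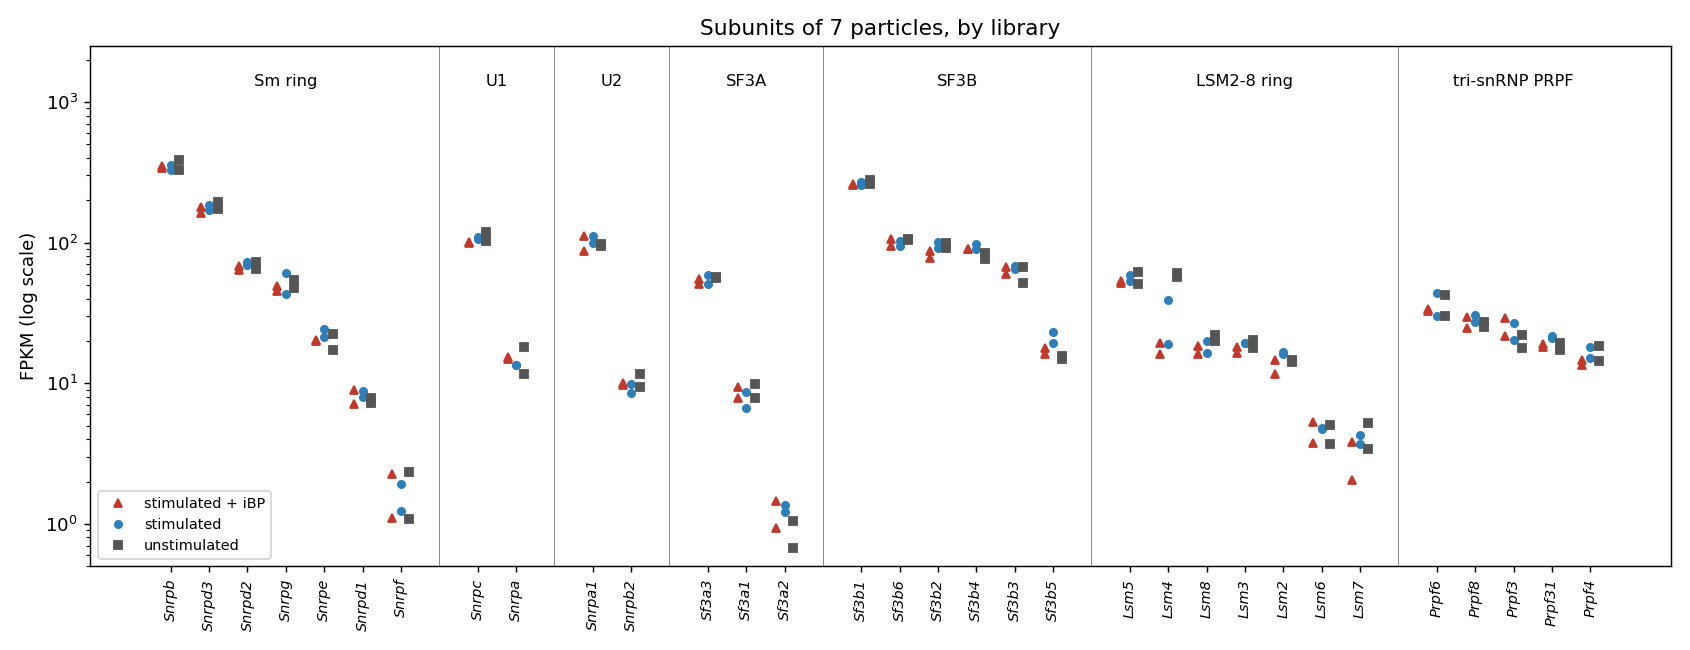
FPKM on a log scale of subunits of 7 particles in each library, ordered by mean level within a particle, with symbols for stimulated + iBP, stimulated and unstimulated Treg. Levels fall over 210-fold along the Sm ring and 2.25-fold along the PRPF proteins of the tri-snRNP, while the 3 groups lie together at nearly every gene other than Lsm4.

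Of the 78 members, 3 were too low to be tested, since tests were run on genes with at least 1 FPKM in at least 2 libraries. Snrpn, which encodes the imprinted Sm protein of neurons, SmN, read 0.240 and 0 FPKM with iBP, 0.430 and 0.245 FPKM in stimulated and 0.370 and 0 FPKM in unstimulated Treg. Prpf19, a ubiquitin ligase that helps to activate the spliceosome, read 0.821 and 0.788 FPKM with iBP, 0.853 and 0.773 FPKM in stimulated and 0.694 and 0.486 FPKM in unstimulated Treg. Lsm14b read 0.446 to 1.03 FPKM over all libraries. All 3 were low in every group, and Prpf19 was the one among them with both unstimulated libraries below the other 4. Snrpn has 1 near-copy and exons that overlap Gm38393, Snurf and Gm18908, whereas neither was found for Prpf19 and Lsm14b. The part of this in the low values was not tested.

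The 6 libraries were alike in most members. Of the 75 tested members, the highest and the lowest of the 6 libraries lay within 1.5-fold for 57 (76%), against 31.6% of all 10436 tested genes. Members are also higher in level than most tested genes, as given above, and the part of level in this was not tested. Replicates of a group differed by a median of 0.15 to 0.16 on the log2 scale for members, against 0.21 to 0.27 for all tested genes. The largest gaps between replicates were those of Srsf12 with iBP (1.38), Hnrnpa1 in stimulated (1.08) and Srsf9 in unstimulated Treg (1.23).

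The first comparison asks which genes differ after stimulation. Of the 75 tested members, 0 passed in stimulated against unstimulated Treg at an adjusted p under 0.05 (limma, Benjamini-Hochberg adjustment over all tested genes). Of all tested genes 1.29% passed, 0.968% as higher and 0.326% as lower. At an unadjusted p under 0.05 there were 4 members (5.33%), against 10.8% of all tested genes. Of these, Hnrnpa3, Hnrnpa1 and Sf3b5 were higher (4%, against 5.88%) and Lsm4 was lower (1.33%, against 4.93%). The median log2 difference was 0.03 for the members, against -0.00 for all tested genes, and 44 of 75 were above 0 (58.7%, against 49.7% of all tested genes). Both stimulated libraries lay above both unstimulated libraries for 14 members (18.7%, against 18.7% of all tested genes) and below both for 6 (8%, against 19.1%). The share without overlap upward was thus that of all genes. A fitted difference of 0.5 or more in either direction was seen in 5 members (6.67%), against 16.4% of all tested genes.

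For most members the interval of the difference was narrow, although it covers the spread among these 6 samples alone. The 95% interval lay within a log2 difference of 1 in both directions, on the log2(FPKM + 1) scale, for 67 members (89.3%), against 68.6% of all tested genes. The median half-width was 0.39 for members, against 0.57 for all tested genes. On this scale a difference of 1 is more than a 2-fold change in FPKM for genes of low level. These intervals are per gene, without adjustment for the number of genes.

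Among the SR proteins, the fitted difference between stimulated and unstimulated Treg ran from -0.24 (Srsf9) to 0.13 (Srsf3), and 0 of 11 passed. Srsf3, the smallest SR protein, which couples splicing to mRNA export, read 92.2 and 83.9 FPKM in stimulated and 73.8 and 87.2 FPKM in unstimulated Treg, which overlap. Srsf1, an activator of exon inclusion that helps recruit U1, read 7.30 and 13.3 FPKM in stimulated and 9.68 and 14.2 FPKM in unstimulated Treg. Its difference of -0.23 ± 0.29 (SE) did not pass (adjusted p = 0.873, limma). Srsf2, which binds exonic enhancers and is the protein of nuclear speckles known as SC35, was near 300 FPKM in both groups, at 274 and 331 FPKM in stimulated and 294 and 295 FPKM in unstimulated Treg. Srsf9 read 6.34 and 6.71 FPKM in stimulated and 12.6 and 4.78 FPKM in unstimulated Treg. The unstimulated libraries thus lay on either side of the stimulated pair.

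The hnRNP genes included the highest fitted differences upward, none past the test. Hnrnpa1, whose protein binds splicing silencers and antagonizes SR proteins, read 140 and 298 FPKM in stimulated and 128 and 115 FPKM in unstimulated Treg. The groups did not overlap, although the stimulated replicates differed from each other by more than stimulated replicate 1 did from either unstimulated library. Its log2 difference was 0.75 ± 0.31 (95% interval 0.08 to 1.42; adjusted p = 0.389). Hnrnpa1 has 8 near-copies, all annotated as pseudogenes. Hnrnpa3, its paralogue, read 54.3 and 70.3 FPKM in stimulated and 41.3 and 42.8 FPKM in unstimulated Treg, without overlap, a difference of 0.55 ± 0.18 (adjusted p = 0.238). It has 22 near-copies, 21 of them pseudogenes, and the share of copy-derived reads in either gene was not tested.

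Hnrnpl and Hnrnpll, the regulators of CD45 splicing named above, were low beside most members. Their means were 7.25 and 5.30 FPKM. The median was 33.3 FPKM for tested members and 8.42 FPKM for all tested genes. Hnrnpll read 5.28 and 4.87 FPKM in stimulated and 4.77 and 4.10 FPKM in unstimulated Treg, and its difference of 0.16 ± 0.28 did not pass (95% interval -0.45 to 0.78; adjusted p = 0.909). Hnrnpl read 6.77 and 7.61 FPKM in stimulated and 6.98 and 6.14 FPKM in unstimulated Treg, with overlap (0.12 ± 0.24; adjusted p = 0.925). A log2 difference of 1 in either direction lies outside the interval of each. Hnrnpa2b1, an abundant hnRNP core protein, read 424 and 502 FPKM in stimulated and 377 and 464 FPKM in unstimulated Treg. Hnrnpa0 had the lowest fitted difference of the family, at 6.62 and 6.22 FPKM in stimulated and 7.93 and 8.16 FPKM in unstimulated Treg (-0.29 ± 0.24; adjusted p = 0.747).

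The snRNP core differed least. Over the 11 tested Snrp genes the fitted difference ran from -0.16 (Snrpb2, a U2 protein) to 0.20 (Snrpe, of the Sm ring), and every 95% interval lay within a log2 difference of 1 in either direction. Snrpd1, of the Sm ring, read 8.76 and 8.02 FPKM in stimulated and 7.86 and 7.18 FPKM in unstimulated Treg, without overlap (0.14 ± 0.23; adjusted p = 0.906). Snrpa1, a protein of the U2 snRNP, read 99.6 and 112 FPKM in stimulated and 97.9 and 93.9 FPKM in unstimulated Treg, also without overlap (0.14 ± 0.14; adjusted p = 0.820). Both differences were smaller than their standard error.

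In SF3A and SF3B, 0 of 9 genes passed. Sf3b1, the subunit that clasps the branch point and the target of several splicing inhibitors, read 258 and 271 FPKM in stimulated and 259 and 280 FPKM in unstimulated Treg, a difference of -0.03 ± 0.11 (95% interval -0.26 to 0.21). Sf3b3 read 64.7 and 68.3 FPKM in stimulated and 51.6 and 66.8 FPKM in unstimulated Treg. These 2 large SF3B subunits overlapped between groups. Sf3b5, a small SF3B subunit, had the highest difference, at 23.0 and 19.4 FPKM in stimulated and 14.9 and 15.6 FPKM in unstimulated Treg (0.45 ± 0.18; adjusted p = 0.397). Sf3a1 had the lowest, at 8.63 and 6.67 FPKM in stimulated and 7.83 and 9.81 FPKM in unstimulated Treg.

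Of the 12 tested Prpf genes 0 passed. Prpf8, the large protein that cradles the catalytic RNA centre, read 27.1 and 30.5 FPKM in stimulated and 27.3 and 25.3 FPKM in unstimulated Treg (0.13 ± 0.17; 95% interval -0.24 to 0.50). Prpf4b, a kinase of the spliceosome, had the highest difference of the family, at 22.2 and 21.8 FPKM in stimulated and 16.1 and 19.3 FPKM in unstimulated Treg, without overlap (0.31 ± 0.19; adjusted p = 0.623). Prpf18, which acts in the second catalytic step, had the lowest, at 17.5 and 19.6 FPKM in stimulated and 22.6 and 18.9 FPKM in unstimulated Treg. The most abundant of the family, Prpf38b, read 73.5 and 90.1 FPKM in stimulated and 67.5 and 88.2 FPKM in unstimulated Treg. The groups overlapped for Prpf18 and Prpf38b.

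**Figure D4:**
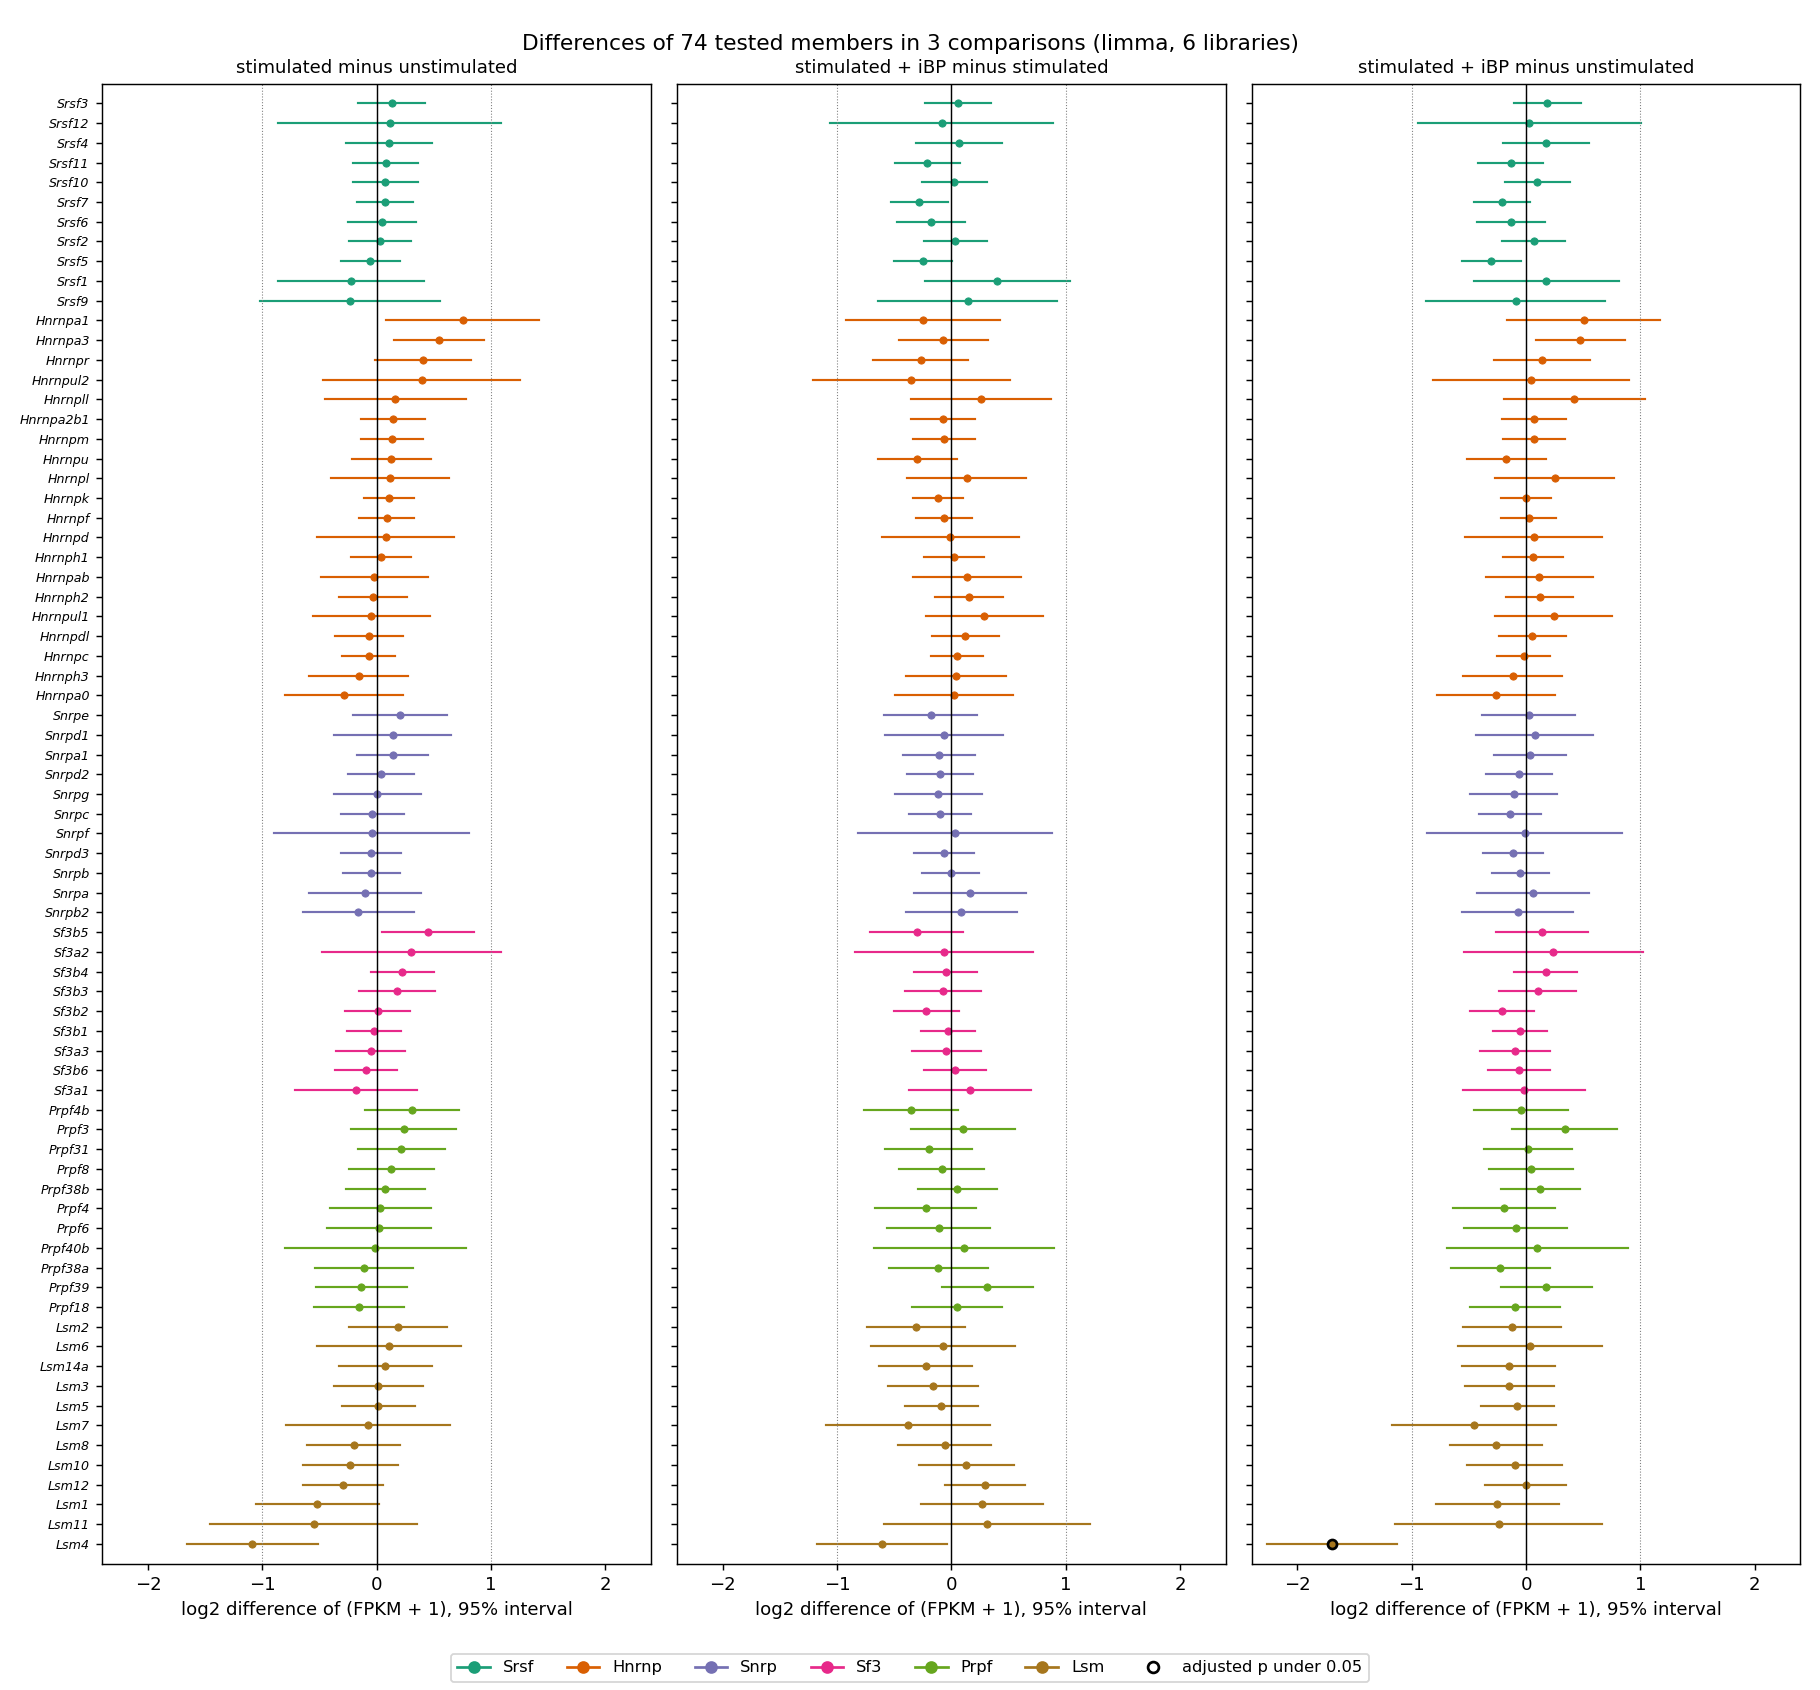
Fitted log2 difference of FPKM + 1 with its 95% interval for 74 of the 75 tested genes, by family, in stimulated minus unstimulated, stimulated + iBP minus stimulated and stimulated + iBP minus unstimulated Treg; dotted lines mark a difference of 1 in either direction. Nearly all intervals cross 0, and the outlined point, Lsm4 in the panel at the right, is the one that passed an adjusted p under 0.05.

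Lsm4 was the exception among the 75. Its protein is a subunit of the ring of LSM2 to LSM8 that holds the 3′ end of U6 RNA and of the ring of LSM1 to LSM7 that acts in mRNA decay. The gene lies at chr8:70673248-70678752 on the plus strand (GRCm38), and neither a near-copy nor an overlapping gene was found for it. It read 19.2 and 16.0 FPKM in stimulated Treg with iBP, 38.9 and 19.1 FPKM in stimulated Treg and 57.3 and 61.1 FPKM in unstimulated Treg. Both unstimulated libraries were above the other 4, and stimulated replicate 2 lay with the iBP libraries while stimulated replicate 1 lay between.

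In stimulated Treg with iBP against unstimulated Treg, Lsm4 fell by 1.70 ± 0.26 on the log2 scale (95% interval -2.27 to -1.13; adjusted p = 0.00627, limma), and it was lower in both libraries. It was 1 of the 75 members that passed in this comparison (1.33%), where 1.75% of all tested genes passed and 0.728% passed as lower, so the members' share was near that of all genes. The call was lost when iBP replicate 2 was left out (adjusted p = 0.0714), when low genes were kept in the fit (adjusted p = 0.506) and when limma used no variance trend (adjusted p = 0.161). In stimulated against unstimulated Treg its difference was -1.09 ± 0.26 (95% interval -1.66 to -0.52), which missed the threshold (adjusted p = 0.0753). Without stimulated replicate 1 that difference was -1.58 and passed (adjusted p = 0.00773), and without stimulated replicate 2 it was -0.59 (adjusted p = 0.407). In stimulated Treg with iBP against stimulated Treg it was -0.61 (95% interval -1.18 to -0.04; adjusted p = 0.998), and the libraries of these groups overlapped.

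The partners of Lsm4 in its rings did not pass. Over the other 6 genes of the ring of Lsm2 to Lsm8, the difference ran from -0.20 to 0.18 in stimulated against unstimulated Treg and from -0.45 to 0.03 in stimulated Treg with iBP against unstimulated Treg, with a lowest adjusted p of 0.640. In stimulated Treg with iBP against stimulated Treg all 6 were below 0 (-0.38 to -0.06), where 44.2% of all tested genes were above 0. Of the 11 other tested Lsm genes, 10 were below 0 and 1 above in stimulated Treg with iBP against unstimulated Treg. In that comparison 45.6% of all tested genes were above 0. The same 11 genes split 7 below and 4 above in stimulated Treg with iBP against stimulated Treg. In stimulated against unstimulated Treg they split 6 below and 5 above, and the 6 ring genes 2 below and 4 above. These genes were read in the same libraries and are not replicates. Lsm2 read 11.6 and 14.7 FPKM with iBP, 16.6 and 16.2 FPKM in stimulated and 14.1 and 14.6 FPKM in unstimulated Treg. Lsm5 read 53.7 and 51.7 FPKM with iBP, 58.9 and 53.5 FPKM in stimulated and 61.2 and 50.6 FPKM in unstimulated Treg. In Lsm2 both stimulated libraries were above the others, and in Lsm5 the groups overlapped. Lsm1, which replaces LSM8 in the decay ring, read 9.42 and 9.65 FPKM with iBP, 8.32 and 7.22 FPKM in stimulated and 14.3 and 9.32 FPKM in unstimulated Treg. Its difference between stimulated and unstimulated Treg was -0.52 ± 0.25 (adjusted p = 0.479).

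**Figure D5:**
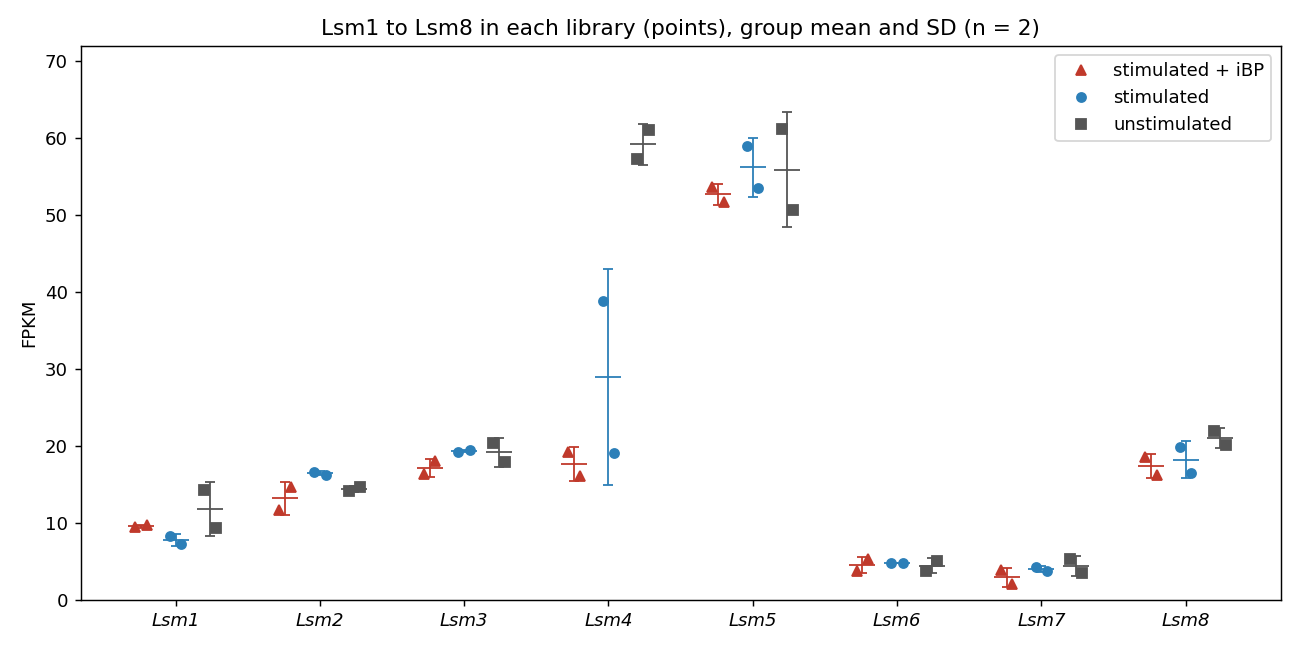
FPKM of Lsm1 to Lsm8 in each library (points) with the group mean and SD (n = 2), for stimulated + iBP, stimulated and unstimulated Treg. Lsm4 is at 57.3 and 61.1 FPKM in unstimulated Treg and at 16.0 to 38.9 FPKM in the other 4 libraries, whereas the other 7 genes show no comparable gap.

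The remaining Lsm genes have other roles. Lsm14a, a P-body protein that binds mRNA in translational repression, read 13.8 and 15.4 FPKM with iBP, 16.5 and 18.0 FPKM in stimulated and 16.9 and 15.7 FPKM in unstimulated Treg, and both iBP libraries were below the other 4. None of its 3 differences passed. Lsm11, a subunit of the U7 snRNP that processes histone pre-mRNA, was near the lower limit of the test, at 1.19 and 0.673 FPKM with iBP, 0.396 and 0.705 FPKM in stimulated and 2.1 and 0.652 FPKM in unstimulated Treg.

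The second comparison asks how the stimulated state differs with iBP. Of the 75 members, 0 passed in stimulated Treg with iBP against stimulated Treg, where 0.00958% of all tested genes, a single gene, passed. At an unadjusted p under 0.05 there were 2, Lsm4 and Srsf7 (2.67%, against 4.77% of all tested genes), both lower (against 3.32% of all tested genes as lower). The median log2 difference was -0.06 for the members and -0.03 for all tested genes, and 30 of 75 were above 0 (40%, against 44.2% of all tested genes). A fitted difference of 0.5 or more was seen in 1 member (1.33%, against 9.61%). Both iBP libraries were below both stimulated libraries for 19 members (25.3%, against 21% of all tested genes) and above both for 7 (9.33%, against 13.6%). The 95% interval lay within a log2 difference of 1 in either direction for 69 (92%, against 73.9%).

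Values of the members at the ends of their families were as follows. Srsf7, an SR protein with a zinc knuckle that also acts in mRNA export, read 382 and 336 FPKM with iBP and 415 and 457 FPKM in stimulated Treg, without overlap (-0.28 ± 0.11; unadjusted p = 0.0290, adjusted p = 0.998). Srsf5, the most abundant SR gene, read 404 and 335 FPKM with iBP and 419 and 455 FPKM in stimulated Treg, also without overlap (-0.25 ± 0.12; adjusted p = 0.998). Srsf1 had the highest difference in the family, at 15.6 and 11.5 FPKM with iBP and 7.30 and 13.3 FPKM in stimulated Treg (0.40 ± 0.29). Srsf7 and Srsf5 thus lay lower in both iBP libraries, as did 21% of all tested genes, but neither passed the test. Srsf1 overlapped.

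Among the hnRNP genes, Hnrnpul1 was highest in difference, at 10.4 and 8.75 FPKM with iBP and 6.85 and 8.51 FPKM in stimulated Treg (0.29 ± 0.23), and Hnrnpul2 lowest, at 2.27 and 1.66 FPKM with iBP and 1.74 and 4.17 FPKM in stimulated Treg (-0.35 ± 0.39). Hnrnpll read 7.74 and 5.04 FPKM with iBP, overlapping the stimulated pair (0.26 ± 0.28; 95% interval -0.36 to 0.87). Hnrnpa1 read 230 and 128 FPKM with iBP, again with a wide gap between replicates (-0.25 ± 0.31). In the Snrp family the range ran from -0.18 (Snrpe) to 0.16 (Snrpa, which binds a stem-loop of U1 RNA). Sf3b5 was lowest of the Sf3 genes, at 16.0 and 17.8 FPKM with iBP and 23.0 and 19.4 FPKM in stimulated Treg (-0.31 ± 0.18), and Sf3a1 was highest (0.16 ± 0.24). In the Prpf family Prpf4b was lowest, at 18.8 and 15.5 FPKM with iBP and 22.2 and 21.8 FPKM in stimulated Treg (-0.35 ± 0.19). Prpf39, a U1-associated protein, was highest, at 26.5 and 23.3 FPKM with iBP and 17.7 and 22.1 FPKM in stimulated Treg (0.31 ± 0.18). Every adjusted p in this paragraph was 0.998 (limma).

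The third comparison sets stimulated Treg with iBP against unstimulated Treg and shares its libraries with the other 2. Beside Lsm4, 2 members had an unadjusted p under 0.05 (Hnrnpa3 higher and Srsf5 lower), so 3 of 75 in all (4%, against 12.2% of all tested genes). The 1 higher member made 1.33% against 5.22% of all tested genes, and the 2 lower members 2.67% against 7.02%. Hnrnpa3 read 50.2 and 68.8 FPKM with iBP and 41.3 and 42.8 FPKM in unstimulated Treg (0.48 ± 0.18; adjusted p = 0.284). Srsf5 read 404 and 335 FPKM with iBP and 444 and 465 FPKM in unstimulated Treg (-0.31 ± 0.12; adjusted p = 0.299). Neither overlapped between groups and neither passed. Hnrnpll, at 7.74 and 5.04 FPKM with iBP and 4.77 and 4.10 FPKM in unstimulated Treg, did not overlap either. Its difference of 0.42 ± 0.28 did not pass (adjusted p = 0.613, limma), and its 95% interval of -0.19 to 1.04 reached past 1. The iBP libraries were both above the unstimulated libraries for 11 members (14.7%, against 18.1% of all tested genes) and both below for 11 (14.7%, against 23.9%). The median log2 difference was -0.00 for members and -0.03 for all tested genes, and 37 members were above 0 (49.3%, against 45.6%). The 95% interval lay within a log2 difference of 1 in either direction for 68 (90.7%, against 67.3%).

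Other genes of the splicing pathway were read from 8 lists of 182 genes outside the 6 families, of which 178 were tested. In stimulated against unstimulated Treg 0 of 178 passed, against 1.29% of all tested genes, with a median log2 difference of 0.03 for the lists and -0.00 for all tested genes. In stimulated Treg with iBP against stimulated Treg 0 passed, against 0.00958%, with medians of -0.08 for the lists and -0.03 for all tested genes. In stimulated Treg with iBP against unstimulated Treg 1 passed (0.562%, against 1.75%), with medians of -0.04 for the lists and -0.03 for all tested genes. In these comparisons, in the same order, 99, 54 and 73 of the 178 genes were above 0. The shares above 0 for all tested genes were 49.7%, 44.2% and 45.6%. Genes of a list are not replicates, and the lower count with iBP against stimulated Treg was not tested. The gene that passed, Raly, an hnRNP-like RNA-binding protein, read 36.7 and 33.7 FPKM with iBP, 52.9 and 46.3 FPKM in stimulated and 65.8 and 80.3 FPKM in unstimulated Treg. The 3 groups did not overlap for Raly, which fell by 1.03 ± 0.15 (95% interval -1.36 to -0.69; adjusted p = 0.00520). Like that of Lsm4, the Raly call was lost without iBP replicate 2 (adjusted p = 0.0778), with low genes kept in the fit (adjusted p = 0.265) and with no variance trend (adjusted p = 0.156).

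The medians of single lists in stimulated against unstimulated Treg lay between -0.05 (26 SR-related proteins and SR kinases) and 0.14 (23 genes of the exon junction complex and mRNA export). The ends of each list, none of which passed, give the size of the spread. In the 18 genes of U1, U2 and 3′ splice site recognition they were Dhx15, a helicase (0.35), and Tia1, which aids U1 binding (-0.09). In the 13 tested tri-snRNP genes they were Ppih (0.34) and Usp39 (-0.49). In the 33 genes of the activated and catalytic spliceosome they were Cwc27 (0.53) and Slu7, a second-step factor (-0.52). Slu7 read 44.1 and 44.2 FPKM in stimulated and 64.8 and 63.1 FPKM in unstimulated Treg, without overlap (adjusted p = 0.0992). In the 10 tested minor spliceosome genes they were Zrsr1 (0.73) and Pdcd7 (-0.28), and in the 16 genes of the SMN complex and Sm assembly Gemin8 (0.76) and Coil, the Cajal body protein coilin (-0.89; adjusted p = 0.258). In the SR-related list they were Scaf4 (0.26) and the kinase Clk2 (-0.42), among 39 other regulators Khsrp (0.65) and Rbms1 (-0.72), and in the export list Alyref, an mRNA export adaptor (0.45), and Magohb (-0.26).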

How the data were processed

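RNA of Treg was primed with oligo-dT and amplified by PCR, per the labels' protocols. The authors deposited FPKM values; per the submitters' processing notes HISAT2 2.2.1, StringTie 2.1.1 and the mm10 assembly were used. Annotation, filters, strand and multi-mapped reads: not given in the sources used here. Depth is unknown, so no interval from counts is given, and reads could be shared by near-identical or overlapping genes. SMART-seq copies were not separated by molecular identifiers. The table held 0 columns of other samples.

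Values were analysed as log2(FPKM + 1), which understates changes of low genes. Genes with at least 1 FPKM in at least 2 libraries (10436 of 24421) were fitted with limma 3.58.1 in R 4.3.3, with a variance trend and all 6 libraries in one model (residual degrees of freedom 3, prior 8.52). Two-sided p-values were adjusted over all tested genes by the Benjamini-Hochberg method, and an adjusted p under 0.05 passed; ± gives the standard error of a log2 difference. The script was tested on simulated data. Separate animals or cultures are not stated for the libraries of a group, so the p-values cover the spread among these 6 samples alone, and that spread may be technical. Near-copies were found with BLAST+ 2.17.0 on GENCODE M21 transcripts, and upstream sequences were taken from RefSeq (GRCm38.p6). Members and gene lists were chosen with earlier results of these data known, and no list was given a test. An item is counted but not reported here. Named with statistics were members that passed, the ends and the most abundant gene of each family, a fixed set of well-studied members and, from the other lists, the genes that passed and the ends of each list; any further member was named after its values were seen. Alternatives were another pseudocount, other filters on low values, rescaling, median-of-ratios and quantile scaling, other variance models, the replicate number as a term, fits of 2 groups, and leaving out each library.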

Additional observations from a re-analysis of the deposited data

How the results depend on the processing

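The counts of members that passed moved only through Lsm4. In stimulated Treg with iBP against unstimulated Treg the count was 1, and 0 with low genes kept in the fit and 0 with no variance trend. In stimulated against unstimulated Treg it was 0, and 1 with a filter of at least 5 FPKM in at least 2 libraries (Lsm4, adjusted p = 0.0413). Leaving out each library in turn, the count ranged from 0 to 1 in stimulated against unstimulated Treg (1 without stimulated replicate 1), from 0 to 1 in stimulated Treg with iBP against unstimulated Treg (0 without iBP replicate 2), and was 0 throughout in stimulated Treg with iBP against stimulated Treg. Why the calls moved was not tested, beyond that these alternatives test other numbers of genes, use fewer libraries or use another variance model. Over the other alternatives run these counts stayed at 0, 0 and 1. The median member differences moved by less than the spread between replicates in the median member level. That spread is wider than the median differences themselves, so this does not show that their sign or size held. The labels do not say that an equal replicate number marks a shared animal or day, so it was not taken as a pairing. Deviations of same-numbered libraries had correlations of -0.01, -0.02 and -0.05 between groups. With 2 libraries a group, such values cannot exclude a shared origin. With the replicate number as a block in limma, 1 member passed in stimulated Treg with iBP against unstimulated Treg (Lsm4, adjusted p = 0.0126). In the other comparisons 0 passed. With 2 libraries a group, the 95% intervals of some members reach past a log2 difference of 1 in at least 1 comparison. Among these are Srsf12, Lsm11, Hnrnpul2, Hnrnpa1 and Hnrnpll, for which a difference of that size is not excluded. The intervals of the other members cover the spread among these 6 samples alone, so they do not bound a difference beyond these samples.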
